A study of Mus musculus with 8 samples.

Results

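The mucins are the large O-glycosylated proteins that cover epithelia. They were followed here in the caput epididymis, the proximal stretch of the duct in which sperm mature. The 10 genes Muc1, Muc2, Muc4, Muc5ac, Muc5b, Muc6, Muc13, Muc15, Muc16 and Muc20 were chosen by name with the WT and Nell2-KO values of these libraries already known. Their differences between the genotypes are therefore a description of the libraries. Of the 24059 gene symbols in the deposited count table, 9 were members, and Muc16 was not analysed here.

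The samples were caput epididymides of C57BL/6N mice at 14 weeks of age, 4 wild type (WT) and 4 with the genotype Nell2-KO. Nell2 encodes a secreted glycoprotein of testicular germ cells, and the labels describe no other allele and no treatment. They number the replicates and do not tie each to an animal, and a p-value here therefore covers only the spread among these libraries, which may be technical. Nell2 itself had 0 reads in all 8 libraries and did not check the genotype labels.

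Counts in genes summed to 2073811 to 2517387 in the WT libraries and to 801112 to 6256204 in the Nell2-KO libraries, with the lowest total in Nell2-KO replicate 1. The quasi-likelihood test of edgeR, run on 11062 genes, called 1654 (15.0%) at an adjusted p under 0.05. Nell2-KO was higher in 690 (6.24%) and lower in 964 (8.71%), and in 22.1% the CPM of the groups did not overlap. Levels are CPM (counts relative to TMM-scaled library size) unless RPKM (reads scaled to transcript length and depth, as the authors deposited them) is named, and means are given ± SD with n = 4 a group. Folds are those fitted by edgeR. Shares of genes whose groups do not overlap are in CPM, and none was counted in RPKM. In each group 1 library stood apart. In Nell2-KO replicate 1, the gene counts relative to the total behind the RPKM came to 0.496 when WT libraries average 1, and to 1.02 to 1.03 in Nell2-KO replicates 2 to 4, so that CPM and RPKM rank this library differently. WT replicate 2 held 7158 CPM of Malat1, a nuclear long noncoding RNA, where WT replicates 1, 3 and 4 held 985 to 1129 CPM. It also held 226 CPM of Lcn5, a listed principal cell marker, where WT replicates 1, 3 and 4 held 1570 to 1775 CPM. Where the fitted fold or call of a mucin rests on either library, the fit without it is given too. In RNA of whole tissue, fewer cells of a type and less RNA per cell cannot be told apart.

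Mucins fall into a gel-forming and a transmembrane class. The gel-forming mucins are secreted, joined end to end by disulphide bonds and make up the scaffold of mucus. The transmembrane mucins stay in the apical membrane, carry a cytoplasmic tail and form a glycan-rich coat on the cell. Both classes carry dense O-linked sugar chains, which Golgi enzymes build on serines and threonines.

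By length-adjusted level, the caput mucin transcripts were dominated by a single transmembrane member, Muc15. Its mean over the 8 libraries was 1145 RPKM, followed by Muc5b at 17.8 RPKM, Muc20 at 3.02 RPKM and Muc4 at 0.363 RPKM. Muc2, Muc1 and Muc6 lay at 0.164, 0.149 and 0.125 RPKM. Muc5ac and Muc13 had 0 reads in all 8 libraries, which allows up to 0.339 CPM for the WT libraries pooled and 0.211 CPM for the Nell2-KO libraries pooled, from counting error alone. Muc15 was above Muc5b, and Muc20 above Muc4, in all 8 libraries. The ranges of Muc5b and Muc20 overlapped in WT, where Muc5b was at 1.20 RPKM in replicate 2 and Muc20 reached 2.57 RPKM, and did not overlap in Nell2-KO. The ranges of Muc4 and Muc2 overlapped in Nell2-KO, and those of Muc2, Muc1 and Muc6 overlapped in both genotypes. The order of the last 3 is therefore not resolved at this depth. It also depends on length, since the deposited RPKM of Muc2 imply a length of 6783 bases and its longest annotated transcript has 2926.

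Reads of the mucins made up 0.441, 0.644, 0.509 and 0.507% of the gene counts in WT replicates 1 to 4. In Nell2-KO replicates 1 to 4 they made up 2.01, 0.620, 0.651 and 0.822%. The share of Nell2-KO replicate 1 was the highest of the 8, and that of replicate 2 lay inside the WT range. Muc15 supplied 94.2 to 98.9% of the mucin reads in WT and 83.4 to 96.1% in Nell2-KO.

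**Figure D1:**
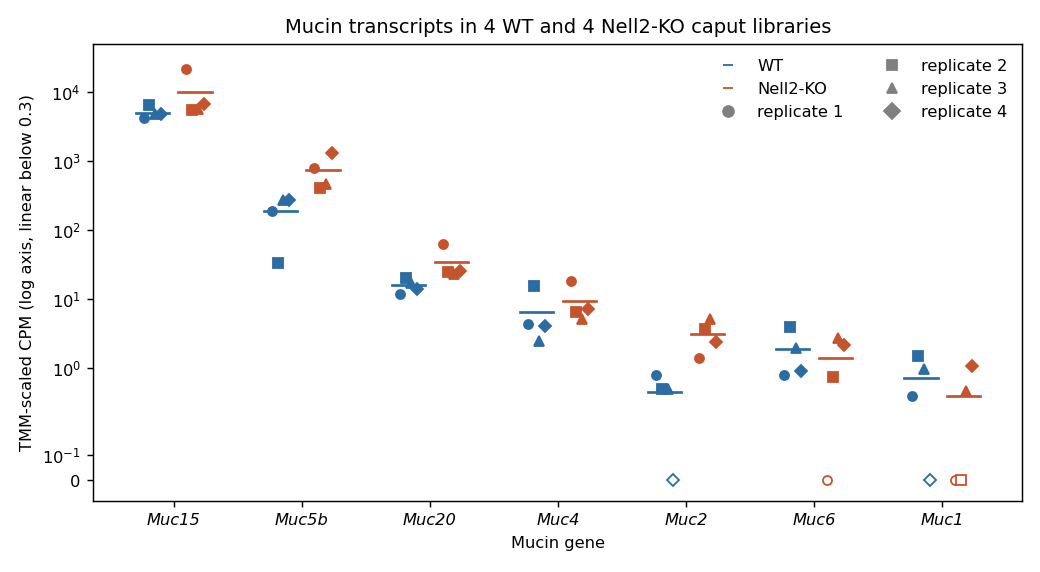
TMM-scaled CPM (log axis, linear below 0.3) of the 7 mucins with reads, 1 point a library, with the replicate number as the symbol, open symbols at 0 and a bar at each group's mean. The 4 Nell2-KO points lie above the 4 WT points for Muc5b, Muc20 and Muc2, as for 9.50% of all genes tested. Nell2-KO replicate 1 is the highest Nell2-KO library for Muc15, Muc20 and Muc4.

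Among the tested members, edgeR called 1 of 4, Muc5b, higher in Nell2-KO and 0 of 4 lower, where 6.24% and 8.71% of all genes tested were called higher and lower. The 4 were Muc4, Muc5b, Muc15 and Muc20. Muc1, Muc2 and Muc6 had reads and did not pass edgeR's filter on low counts. The count of 1 did not always stand for the same gene. It was Muc5b with all 8 libraries and Muc20 without Nell2-KO replicate 1. Without Nell2-KO replicate 1 and WT replicate 2 it was 2, Muc15 and Muc20. It was 0 without WT replicate 1, WT replicate 3 or Nell2-KO replicate 4. At an unadjusted threshold of 0.05, edgeR gave 3 of 4 higher (Muc5b, Muc15 and Muc20) and 0 lower. Over all 11062 genes tested, 1428 were higher and 1536 lower at that threshold. DESeq2 and limma called 0 mucins lower after adjustment.

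Muc5b, the gel-forming mucin best known from the airways, was the gel-forming member with the highest level, and its transcript rose in Nell2-KO. The gene (ENSMUSG00000066108.7) is on the plus strand of chromosome 7 (141839070 to 141873084, mm10), with 49 annotated exons. Its level was 186, 32.8, 275 and 269 CPM in WT replicates 1 to 4. It was 804, 412, 468 and 1288 CPM in Nell2-KO replicates 1 to 4. All Nell2-KO libraries lay above all WT libraries, as for 9.50% of all genes tested, WT replicate 2 was far below the rest of its group, and Nell2-KO replicate 4 was the highest. The means were 190.5 ± 113 CPM (WT) and 743 ± 403 CPM (Nell2-KO). The fitted rise was 3.90-fold (log2 fold change 1.96 ± 0.55 SE, edgeR adjusted p = 0.0340).

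On the RPKM scale the groups of Muc5b were also separate, at 1.20 to 11.6 RPKM in WT and 14.6 to 56.0 RPKM in Nell2-KO. Ranked by mean RPKM among the 24059 symbols, Muc5b was at place 4404 in WT and 1185 in Nell2-KO. Within single WT libraries it was at place 10297 in replicate 2 and 3357 to 4625 in replicates 1, 3 and 4. Its share of the mucin reads was 4.27, 0.502, 5.34 and 5.34% in WT replicates 1 to 4 and 3.54, 6.98, 7.54 and 16.1% in Nell2-KO replicates 1 to 4. These shares overlapped, since Nell2-KO replicate 1 was below 3 of the WT libraries. Per length, Muc15 exceeded Muc5b 80.5- to 900-fold in WT libraries and 23.7- to 124-fold in Nell2-KO libraries.

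The direction of Muc5b was the same in all 18 alternatives (log2 fold change 1.46 to 2.20), but its call held in 7 of them. It ended without WT replicate 1 (adjusted p = 0.0875), WT replicate 3 (0.05 after rounding), and Nell2-KO replicates 1 (0.153) or 4 (0.0826) by edgeR, and in both limma fits on RPKM (0.273 and 0.191). It also ended without a filter on low counts (edgeR adjusted p = 0.188), at 1 CPM in 4 libraries (0.0843), with thinned libraries (0.0533), without Nell2-KO replicate 1 and WT replicate 2 (0.132), and by limma-voom (0.113). Without WT replicate 2, the lowest library, the log2 fold change was 1.62 and stayed called (edgeR adjusted p = 0.0212).

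Muc2, the main mucin of intestinal goblet cells, lies in the same cluster of gel-forming genes on chromosome 7. Muc6, Muc2, Muc5ac and Muc5b follow each other there with gaps of 35020, 34278 and 19838 bases, Muc6 on the minus strand and the others on the plus strand. Muc2 (ENSMUSG00000025515.15) spans 141690340 to 141754693 of mm10. In CPM, the genotypes did not overlap for 22.1% of all genes tested. The promoters of Muc2 and Muc20 are shown because the CPM of both genes separated the genotypes without a call for either. Both are from RefSeq on GRCm38.p6, 250 bases before to 50 after the gene start, 5′ to 3′, with the motifs AGGAAG (an ETS factor core) and TATAAA (the TATA box) in capitals.
Muc2, chr7:141690090-141690389, plus strand: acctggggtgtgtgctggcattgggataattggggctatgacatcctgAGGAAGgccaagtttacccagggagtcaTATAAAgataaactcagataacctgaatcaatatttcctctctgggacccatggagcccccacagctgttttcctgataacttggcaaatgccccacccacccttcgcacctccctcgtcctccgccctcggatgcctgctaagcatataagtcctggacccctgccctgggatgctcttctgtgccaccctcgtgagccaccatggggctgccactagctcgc
Muc20, chr16:32797386-32797685, minus strand: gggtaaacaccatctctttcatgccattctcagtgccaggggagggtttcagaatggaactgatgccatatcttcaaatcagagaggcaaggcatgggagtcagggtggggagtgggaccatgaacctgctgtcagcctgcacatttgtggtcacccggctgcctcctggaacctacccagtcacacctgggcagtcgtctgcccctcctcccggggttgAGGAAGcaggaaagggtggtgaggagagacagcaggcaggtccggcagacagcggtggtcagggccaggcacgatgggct
The search on both strands also covered a further ETS core, CCGGAA, a motif of steroid receptors, TGTTCT, that of AP-2 factors, GCCNNNGGC, and that of STAT factors, TTCNNNGAA, none of which was in either window. The Muc2 window held AGGAAG at position -202 and TATAAA at -174 from the gene start. That of Muc20 held AGGAAG at -30. AGGAAG occurred in 35.4% and TATAAA in 13.6% of the 32851 promoters of the same length, so that these matches are a description and not sites. RefSeq promoters of this kind were found for 7 of the 10 genes, Muc1, Muc2, Muc4, Muc6, Muc13, Muc16 and Muc20.

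Muc2 was counted at 2, 1, 1 and 0 reads in WT replicates 1 to 4 and at 1, 5, 34 and 13 reads in Nell2-KO replicates 1 to 4. In CPM these were 0.783, 0.489, 0.486 and 0 in WT and 1.41, 3.64, 5.18 and 2.34 in Nell2-KO. All Nell2-KO libraries were above all WT libraries in CPM, as for 9.50% of all genes tested. On the RPKM scale the groups overlapped, since Nell2-KO replicate 1, with its single read, was at 0.0569 RPKM and WT replicate 1 at 0.0753 RPKM. Pooled over each group, 53 reads in Nell2-KO stood against 4 in WT, a ratio of scaled counts of 8.25 with an exact binomial 95% interval of 3.04 to 31.4 for counting error only. Muc2 did not pass the expression filter and so has no value in the 8-library test. Where it was admitted, it was higher with adjusted p = 0.00562 by edgeR without a filter, 0.00790 by edgeR at 1 CPM in 4 libraries and 0.0193 by DESeq2. At 1 CPM in 4 libraries it was admitted only through the Nell2-KO libraries, since every WT library was under 1 CPM. The gene was also chosen with these values known, so the p-values are a description.

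Muc6, a gel-forming mucin of gastric glands (ENSMUSG00000048191.15, chromosome 7, 141633456 to 141655319), was counted at 2, 8, 4 and 2 reads in WT and 0, 1, 18 and 12 reads in Nell2-KO. The groups overlapped, at 0.783 to 3.92 CPM in the WT libraries and 0 to 2.74 CPM in the Nell2-KO libraries. The pooled ratio was 1.21 (exact binomial 95% interval 0.640 to 2.36), so that no difference was detectable at this depth. Muc5ac, the mucin of the gastric and airway surface, lies between Muc2 and Muc5b (ENSMUSG00000037974.16, 141788972 to 141819231) and had 0 reads, while both of its neighbours were read in both genotypes.

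Muc15, a transmembrane mucin described in milk fat globule membranes of cattle, was the most abundant mucin transcript of the caput. It stood at place 36 by mean RPKM among the 24059 symbols in WT and at place 20 in Nell2-KO. The gene (ENSMUSG00000050808.13) lies on chromosome 2 at 110721340 to 110739527, plus strand, with 5 exons. Its levels were 4148, 6460, 4849 and 4744 CPM in WT replicates 1 to 4 and 21810, 5454, 5698 and 6681 CPM in Nell2-KO replicates 1 to 4. The groups overlapped, since WT replicate 2 was above Nell2-KO replicates 2 and 3, and Nell2-KO replicate 1 was far above all other libraries. The means were 5050 ± 989 CPM (WT) and 9911 ± 7950 CPM (Nell2-KO), and the difference did not pass the test (log2 fold change 0.97 ± 0.41 SE, edgeR adjusted p = 0.148).

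The RPKM of Muc15 did not overlap, by a narrow gap between replicate 2 of each genotype. They were 819, 1080, 937 and 931 RPKM in WT replicates 1 to 4 and 1808, 1102, 1158 and 1326 RPKM in Nell2-KO replicates 1 to 4. Their means were 942 ± 107 and 1348 ± 321 RPKM. Nell2-KO replicate 1 was 3.67 times the mean of the other 3 Nell2-KO libraries in CPM and 1.51 times in RPKM. Without that library the log2 fold change was 0.23 (edgeR adjusted p = 0.253). Without it and WT replicate 2 it was 0.37 and passed (adjusted p = 0.00579).

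Muc15 lies wholly within Ano3, a gene on the opposite strand that encodes a membrane protein of the anoctamin family, with 61 bases of shared exon sequence. Ano3 was at 49.0, 51.4, 53.0 and 52.9 CPM in WT replicates 1 to 4 and at 303, 44.4, 58.8 and 80.9 CPM in Nell2-KO replicates 1 to 4. Its groups overlapped and it did not pass the test (log2 fold change 1.13 ± 0.51 SE, edgeR adjusted p = 0.178). That fit includes Nell2-KO replicate 1, and none without it is given. Muc15 held 72.0 to 126 times the reads of Ano3. The library kit was stranded, but no source used here gives the strand setting of the counting, and without it reads of an overlapping pair cannot be told apart.

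Muc20, a transmembrane mucin whose human form binds the receptor MET, was higher in every Nell2-KO library than in every WT library. In CPM this was so for 9.50% of all genes tested. The gene (ENSMUSG00000035638.14) lies on chromosome 16 at 32777419 to 32797435, minus strand, downstream of the promoter printed above. Its levels were 11.8, 20.1, 17.0 and 14.1 CPM in WT replicates 1 to 4 and 62.0, 24.7, 23.3 and 25.2 CPM in Nell2-KO replicates 1 to 4. The groups did not overlap in CPM or RPKM, and Nell2-KO replicates 2 to 4 lay close together. Nell2-KO replicate 1 was 2.54 times the mean of these 3 in CPM and 1.05 times in RPKM, where the group means were 2.24 ± 0.371 RPKM in WT and 3.80 ± 0.129 RPKM in Nell2-KO. The test missed its threshold (15.7 ± 3.60 to 33.8 ± 18.8 CPM, log2 fold change 0.94 ± 0.31 SE, edgeR adjusted p = 0.0664). It passed without Nell2-KO replicate 1, at a smaller log2 fold change of 0.64 (edgeR adjusted p = 0.0155), and in 6 of 18 alternatives in all (adjusted p from 0.00169 to 0.178). The direction was the same in all 18.

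Muc4, a large transmembrane mucin known in rat and human as a partner of the receptor ERBB2, lies on the opposite strand and overlaps the end of Muc20 with its own end, by 4973 bases of which 627 are exonic in both. It lies on the plus strand of chromosome 16 at 32735886 to 32782391 (ENSMUSG00000079620.13). Its levels were 4.31, 15.2, 2.43 and 4.11 CPM in WT replicates 1 to 4 and 18.3, 6.55, 5.18 and 7.19 CPM in Nell2-KO replicates 1 to 4. WT replicate 2 and Nell2-KO replicate 1 stood above the rest of their groups, and the groups overlapped. The log2 fold change was 0.20 ± 0.53 SE (edgeR adjusted p = 0.864), and it turned to -0.0405 without Nell2-KO replicate 1 and to -0.0359 without WT replicate 3. With unknown strand handling, the reads of the shared exon stretch cannot be told apart between Muc4 and Muc20.

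Muc1, the transmembrane mucin of most glandular epithelia (ENSMUSG00000042784.9, chromosome 3, 89229057 to 89233381), was counted at 1, 3, 2 and 0 reads in WT and 0, 0, 3 and 6 reads in Nell2-KO. The groups overlapped, and the pooled ratio was 0.934 (exact binomial 95% interval 0.297 to 3.19). Muc13, a transmembrane mucin of the gut (ENSMUSG00000022824.12, chromosome 16, 33794037 to 33819934), had 0 reads.

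**Figure D2:**
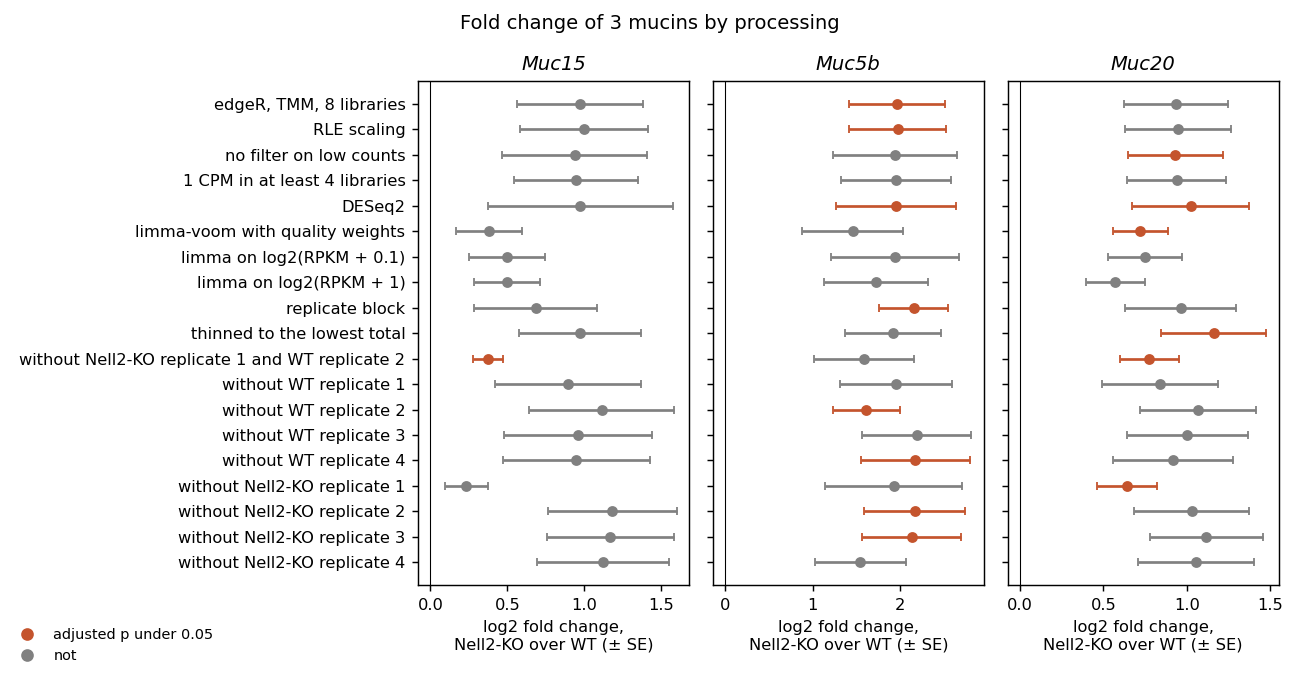
Log2 fold change of Nell2-KO over WT (points, with SE as bars) of Muc15, Muc5b and Muc20 under the edgeR fit to 8 libraries and 18 alternatives, coloured where the adjusted p was under 0.05. All points lie above 0, Muc15 drops to 0.23 without Nell2-KO replicate 1, and the calls of Muc5b and Muc20 come and go.

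The genes whose levels over the 8 libraries were most like those of Muc5b and Muc15 were taken from 10352 genes, by Pearson correlation of log2(CPM + 1) over 8 libraries. For Muc5b they were Mbnl3, an RNA-binding protein of the muscleblind family, the beta-defensins Defb12 and Defb37, the pyrophosphatase Enpp1 and the sialyltransferase St6gal1, each with r = 0.99. All 5 shared with Muc5b a low WT replicate 2. Mbnl3 was at 148, 32.3, 209 and 204 CPM in WT replicates 1 to 4 and at 615, 348, 412 and 732 CPM in Nell2-KO replicates 1 to 4. Defb12 was at 209 CPM in WT replicate 2 and between 568 and 704 CPM in WT replicates 1, 3 and 4. Like Muc5b, both were highest in Nell2-KO replicate 4.

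For Muc15 the genes were Mef2a, a transcription factor, Ube2n, a ubiquitin-conjugating enzyme, Tsg101, a sorting protein of endosomes, the histone gene H3f3b and Pabpc1, the poly(A)-binding protein, with r of 0.99 to 1.00. They shared its high Nell2-KO replicate 1. Mef2a was at 734 CPM in that library and between 240 and 300.1 CPM in Nell2-KO replicates 2 to 4. By Spearman correlation, which weighs a single extreme library less, 8 genes were tied at the top for each, among them 3 of the 5 for Muc5b (Mbnl3, Defb12 and Enpp1) and 1 of the 5 for Muc15 (Mef2a). These correlations are descriptions, and the points share their libraries and depth.

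**Figure D3:**
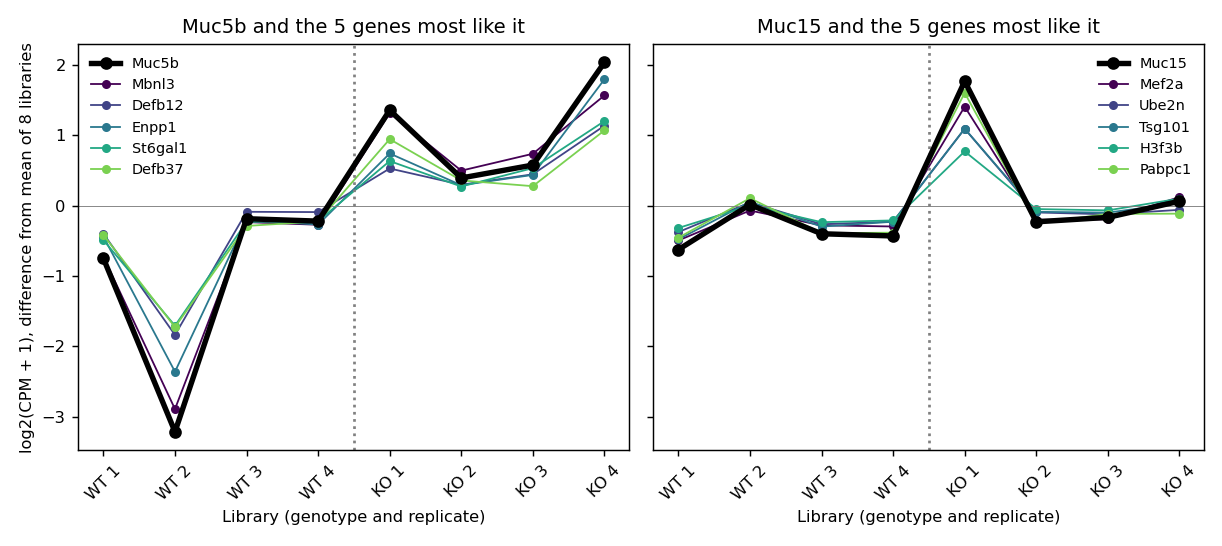
Difference of log2(CPM + 1) from its mean over 8 libraries, for Muc5b (left) and Muc15 (right) in black and the 5 genes most like each in colour, with a dotted line between the genotypes. The Muc5b group is lowest in WT replicate 2 and highest in Nell2-KO replicate 4, and the Muc15 group stands out in Nell2-KO replicate 1.

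Of the enzymes that build the O-linked chains of mucins, 25 of 44 listed genes were tested. Of these, 12 fell and 5 rose in Nell2-KO, against 8.71% and 6.24% of all genes tested. Their median log2 fold change was -0.55, against 0.03 over all genes tested. Without Nell2-KO replicate 1 and WT replicate 2, 14 fell and 7 rose. By limma on RPKM with a pseudocount of 0.1, 8 fell and 1 rose.

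Gcnt4, which adds the branching N-acetylglucosamine of O-linked chains, fell from 573 to 758 CPM in WT libraries to 0.609 to 8.45 CPM in Nell2-KO libraries. The means were 636 ± 83.6 and 2.85 ± 3.75 CPM, a 472-fold fall (log2 fold change -8.88 ± 0.45 SE, edgeR adjusted p = 7.67e-08). The size of this fall is loosely set, since the Nell2-KO libraries held 17 reads. The log2 fold change was -9.53 without Nell2-KO replicate 1 and -6.01 by limma on log2(RPKM + 1). St3gal2, which caps galactose of these chains with sialic acid, fell 62.6-fold, from 365 ± 14.6 to 6.15 ± 1.00 CPM (edgeR adjusted p = 3.88e-09). St6galnac2, which adds sialic acid to the first sugar of the chain, fell 11.2-fold, from 174 ± 25.6 to 16.2 ± 6.64 CPM (edgeR adjusted p = 3.84e-06). St3gal1, another galactose-capping sialyltransferase, fell 7.34-fold, from 66.9 ± 6.98 to 7.57 ± 3.78 CPM (edgeR adjusted p = 3.72e-06). The groups of these 4 genes did not overlap, as for 22.1% of all genes tested, and each call held in all 18 alternatives. By limma on log2(RPKM + 1) the log2 fold changes of St3gal2 and St3gal1 were smaller, at -4.88 and -2.21.

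The N-acetylgalactosaminyltransferases, which start the chains, moved in both directions. Galnt6 fell 38.7-fold, from 24.7 ± 4.44 to 1.51 ± 1.56 CPM, a size loosely set by 8 reads in the Nell2-KO libraries. Galnt10, Galnt4, Galnt2 and Galnt11 fell 6.07-, 3.76-, 2.50- and 1.56-fold. Galnt7, Galnt12 and Galnt18 rose 1.98-, 1.79- and 1.53-fold. The most abundant of the family, Galnt1, averaged 188 ± 3.93 CPM in WT libraries and 228 ± 33.4 CPM in Nell2-KO and did not pass the test (edgeR adjusted p = 0.222). The call of Galnt18 held in only 2 of the 8 fits that left out 1 library.

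The fucosyltransferases of the chain ends also split, with Fut2 16.3-fold lower and Fut1 2.48-fold higher. The fold of Fut2 is loosely set, with 7 reads in the Nell2-KO libraries. Gcnt1, which makes the same branch as Gcnt4, rose 2.54-fold, from 89.1 to 127 CPM in WT libraries to 195 to 413 CPM in Nell2-KO libraries (edgeR adjusted p = 0.00165), and this call held in all 18 alternatives. Those of Fut1, Galnt7 and Galnt12 ended in the 2 limma fits on RPKM. St6galnac4 and B4galnt2 fell 2.20- and 1.70-fold. C1galt1, which adds the galactose that follows the first sugar, averaged 82.6 ± 17.8 CPM in WT libraries and 59.7 ± 23.7 CPM in Nell2-KO (edgeR adjusted p = 0.172). Genes of the list other than Gcnt4, St3gal2, St6galnac2 and St3gal1 were chosen after their values were seen.

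**Figure D4:**
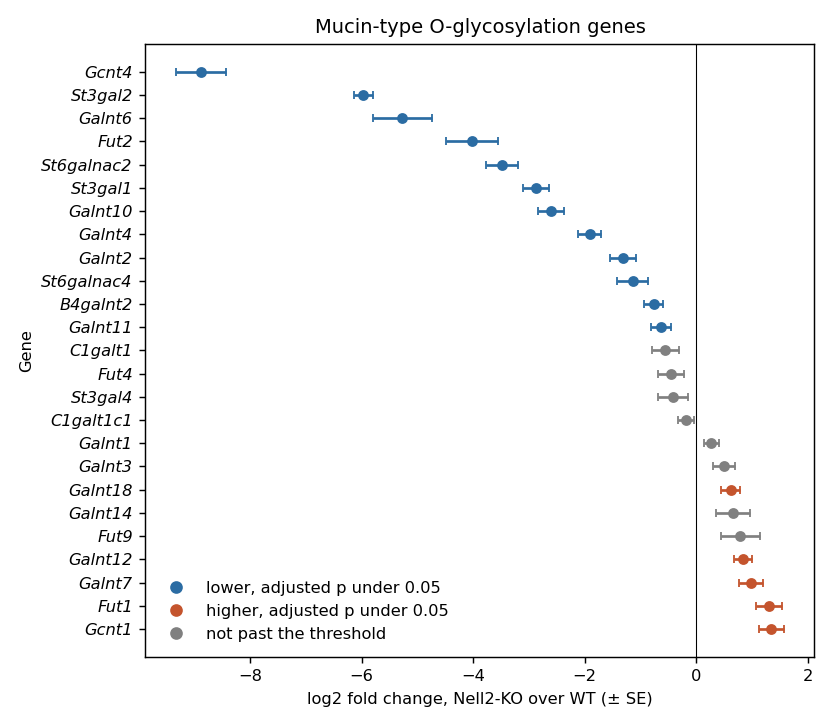
Fitted log2 fold change of Nell2-KO over WT (points, with SE as bars) for the 25 tested genes of mucin-type O-glycosylation, blue where lower and red where higher at an adjusted p under 0.05, grey otherwise. The 12 genes that fell reach down to -8.88 (Gcnt4) and the 5 that rose reach 1.35 (Gcnt1).

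Of the listed partners of secreted mucus, 13 of 39 were tested, with a median log2 fold change of -0.07. Of these 13, 1 rose and 2 fell, against 6.24% and 8.71% of all genes tested. Agr2, a disulphide isomerase of the endoplasmic reticulum needed for Muc2 production in the mouse intestine, rose 1.92-fold, from 109 ± 33.6 to 210 ± 22.2 CPM (edgeR adjusted p = 0.0117). Its groups did not overlap in CPM and overlapped in RPKM, and its call ended only in the 2 limma fits on RPKM. Clca2, of the calcium-activated chloride channel regulators, fell from 38.8 ± 3.84 to 25.9 ± 1.46 CPM (edgeR adjusted p = 0.0166), a call that held in 6 of 8 fits without 1 library. Lyz2, which encodes lysozyme and marks macrophages, fell from 39.1 ± 5.53 to 25.6 ± 5.13 CPM (edgeR adjusted p = 0.0336), a call that held in 1 of those 8. Pdia3, the most abundant tested gene of the list and another disulphide isomerase, averaged 2290 ± 271 CPM in WT libraries and 2436 ± 774 CPM in Nell2-KO (edgeR adjusted p = 0.844). Tff1, Tff2, Zg16, Foxa2, Atoh1 and 6 more of the 39 listed genes had 0 reads in all 8 libraries. The other listed genes had reads, among them Agr2, Clca1 and Klf4.

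Of the other mucin-type glycoproteins, 10 of 25 with a row were tested, with a median log2 fold change of 0.26. Of these 10, 2 rose and 3 fell, against 6.24% and 8.71% of all genes tested. Vsig1, a junctional membrane protein known from the stomach, rose 3.18-fold, from 6.72 ± 1.24 to 21.4 ± 1.70 CPM (edgeR adjusted p = 0.000122). Cd34, a sialomucin of blood vessels and stromal cells, fell 3.88-fold, from 167 ± 20.5 to 44.4 ± 7.65 CPM (edgeR adjusted p = 5.62e-06). Podxl and Emcn, which encode the sialomucins podocalyxin and endomucin of endothelium, fell 2.42- and 2.86-fold. The call of Hepacam2 (7.60 ± 2.36 to 14.6 ± 2.77 CPM, edgeR adjusted p = 0.0399), named after its values were seen, held in 3 of 8 fits without 1 library. Cd164, the endosomal sialomucin and the most abundant of these genes, averaged 656 ± 31.7 CPM in WT libraries and 715 ± 48.8 CPM in Nell2-KO (edgeR adjusted p = 0.602). Beside Cd34, Podxl and Emcn, the summed level of 7 endothelial markers, Emcn among them, was 102 to 134 CPM in the WT libraries and 56.6 to 76.0 CPM in the Nell2-KO libraries, and 3 of the 7 were called lower. The part of vessels in these falls was not tested.

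Of 16 tested genes for shedding and partners of transmembrane mucins, 0 rose and 2 fell by edgeR, against 6.24% and 8.71% of genes tested. Their median log2 fold change was 0.00. At an unadjusted p under 0.05 by edgeR, 1 of the 16 was higher, where 1428 of all 11062 genes tested were. After adjustment, 2 were called higher without Nell2-KO replicate 1, 1 without this library and WT replicate 2, 1 by limma-voom and 0 by DESeq2. In these 4 fits 4, 4, 4 and 2 genes were called lower. Met, the hepatocyte growth factor receptor, fell 3.46-fold, from 89.1 ± 13.3 to 28.0 ± 9.75 CPM (edgeR adjusted p = 9.94e-05), without overlap and in all 18 alternatives. Ctnnb1, which encodes beta-catenin, a binding partner of the human MUC1 tail, fell 1.38-fold, from 816 ± 31.0 to 590 ± 46.0 CPM (edgeR adjusted p = 0.0284), a call that held in 2 of 8 fits without 1 library. Ezr, the membrane-cytoskeleton linker ezrin and the most abundant of them, averaged 939 ± 143 CPM in WT libraries and 660 ± 349 CPM in Nell2-KO (edgeR adjusted p = 0.277). Its RPKM did not overlap, at 175 to 206 in WT and 95.6 to 110.3 in Nell2-KO. It was called lower without Nell2-KO replicate 1 (log2 fold change -0.95, edgeR adjusted p = 1.72e-05), without that library and WT replicate 2 (-0.84, 1.32e-08), by limma-voom (-0.80, 1.07e-05) and by limma on log2(RPKM + 1) (-0.84, 0.0185).

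Genes beside the mucin loci were read as a description of the regions. Of 10 tested neighbours of the chromosome 7 cluster, 0 rose and 2 fell by edgeR, against 6.24% and 8.71% of all genes tested. Their median log2 fold change was -0.15. Efcab4a fell 3.65-fold, from 8.16 ± 2.68 to 1.62 ± 1.27 CPM (edgeR adjusted p = 0.00523). Dusp8, a phosphatase of MAP kinases, fell from 11.1 ± 2.63 to 3.20 ± 2.99 CPM (edgeR adjusted p = 0.0471), a call that held in 2 of 8 fits without 1 library. Ctsd, the lysosomal protease cathepsin D and the most abundant neighbour there, averaged 517 ± 69.0 CPM in WT libraries and 359 ± 163 CPM in Nell2-KO (edgeR adjusted p = 0.353), and was called lower without Nell2-KO replicate 1 and WT replicate 2 (log2 fold change -0.32, edgeR adjusted p = 0.00250). Of 11 tested neighbours of Muc4 and Muc20 on chromosome 16, 0 rose and 1 fell, against the same shares, with a median of -0.12. At an unadjusted p under 0.05 by edgeR, 0 neighbours of either locus were higher, where 1428 of all 11062 genes tested were. After adjustment, the only call of a higher level was 1 neighbour on chromosome 7 without Nell2-KO replicate 1, with 0 by DESeq2. The calls lower on chromosome 16 were 5 by limma-voom, 4 without Nell2-KO replicate 1 and WT replicate 2, 3 without Nell2-KO replicate 1 alone and 0 by limma on RPKM, and those on chromosome 7 were 3, 3, 2 and 0 to 1. The gene that fell by edgeR with all libraries on chromosome 16 was Tfrc, the transferrin receptor, which went from 120 ± 10.7 to 76.3 ± 3.79 CPM (edgeR adjusted p = 0.00433). Apod, which encodes a lipocalin that carries lipids, was the most abundant there, with means of 244 ± 62.6 (WT) and 233 ± 61.9 CPM (Nell2-KO) (edgeR adjusted p = 0.869).

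Markers of cell types moved with the genotype beside these results. Principal cell markers of the caput summed to 130900 to 140500 CPM in the WT libraries and 95000 to 117300 CPM in the Nell2-KO libraries. Of 15, 13 were called lower and 1 higher, against 8.71% and 6.24% of all genes tested. Their median log2 fold change was -5.25. Gpx5 alone held 63030 to 73730 CPM in WT libraries and 65530 to 90290 CPM in Nell2-KO, a large part of each sum. Lcn5 of the same list, named after its values were seen, was at 226 to 1775 CPM in WT libraries. In Nell2-KO it was at 3457 to 7401 CPM, above all WT libraries, as for 9.50% of all genes tested. Like Muc5b, Lcn5 was lowest in WT replicate 2 and highest in Nell2-KO replicate 4. Clear and narrow cell markers summed to 668 to 708 CPM in the WT libraries and 988 to 1135 CPM in the Nell2-KO libraries, with 4 of 9 tested called higher and 1 lower. Basal cell markers summed to 510 to 547 CPM in the WT libraries and 304 to 368 CPM in the Nell2-KO libraries, with 4 of 6 tested lower. The part of these cell types in the values of Muc5b, Muc15, Muc20 or the O-glycosylation genes was not tested.

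Markers of other tissues and cells were also summed. The summed ranges of the genotypes were separate for the accessory glands, fibroblasts and smooth muscle. A sum follows its most abundant genes, so the medians of fibroblasts and smooth muscle are given too. Calls stand against 6.24% higher and 8.71% lower over all genes tested. Accessory gland markers summed to 6.36 to 9.72 CPM in the WT libraries and 17.6 to 22.5 CPM in the Nell2-KO libraries, and 8 of the 11, Svs1, Svs2, Svs3a, Svs4, Svs5, Pbsn, Spink3 and Sbp, were at 0 in all libraries. The 1 tested marker of that list was called higher. Mesothelial markers summed to 231 to 280 CPM in the WT libraries and 223 to 329 CPM in the Nell2-KO libraries, with 1 of 3 tested higher and 1 lower. Markers of ciliated efferent duct cells summed to 21.4 to 53.4 CPM in the WT libraries and 21.9 to 94.5 CPM in the Nell2-KO libraries. Fibroblast markers summed to 1017 to 1087 CPM in WT libraries and to 674 to 1015 CPM in those of Nell2-KO, with 1 of 7 higher and 1 lower. The median log2 fold change of these 7 was 0.39, above 0. Germ cell markers summed to 32.4 to 60.3 CPM and 36.1 to 103 CPM, and adipocyte markers to at most 1.41 CPM in any library. Smooth muscle markers summed to 1528 to 1813 CPM in the WT libraries and 655 to 852 CPM in the Nell2-KO libraries. Of these 7, 1 was called lower, and their median log2 fold change was 0.08. Leukocyte markers summed to 144 to 185 CPM in the WT libraries and 95.8 to 148 CPM in the Nell2-KO libraries, with 1 of 7 tested lower.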

How the data were processed

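RNA of whole caput epididymis was amplified, made into stranded mRNA libraries and read as single 36-base reads, per the labels' protocols. Per the file headers, the authors deposited raw read counts and RPKM for each gene symbol in each library. Bowtie2 2.2.0, CASAVA 1.8.2, FastQC 0.11.2 and the build mm10 come from the submitters' processing notes. No source used here gives the counting tool or its strand setting. Groups came from the sample titles.

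Counts of the whole table were tested with edgeR 4.0.16 (R 4.3.3), with TMM scaling, its default filter, robust quasi-likelihood F tests, Benjamini-Hochberg adjustment over 11062 genes and a threshold of 0.05. CPM used library totals multiplied by TMM factors. The step was tested on simulated data. Alternatives used DESeq2 1.42.0, limma 3.58.1 on log2(RPKM + 0.1) and log2(RPKM + 1), and others. A group at 0 reads was given a floor of 3 counts. Intervals (95%, exact binomial) and floors cover counting error only. Two-sided tests were used throughout.

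The members, lists, rules and alternatives were chosen with earlier results of these data known. The rule named all members, up to 4 tested genes of each list by adjusted p and the 1 with the highest CPM, and the 5 genes most like a member (mean CPM of at least 5). List genes it named that neither passed the test nor were the most abundant are not described. Positions came from GENCODE on mm10, where 16 listed neighbours of the chromosome 7 cluster and 14 of Muc4 and Muc20 had a row. Within-group pairs of libraries gave a chi-square per degree of freedom of 1.27 to 16.1, and all were counted as separate samples.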

Additional observations from a re-analysis of the deposited data

Results flagged for a closer look

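Within groups of 4, a value was picked out where its gap to the nearest library exceeded Dixon's critical share of the group's range. Chance picks out about 1 in 20 groups, and 14 groups were looked at. Nell2-KO replicate 1 was picked out for 3 members. It held 21810 CPM of Muc15, against 5454 to 6681 CPM in Nell2-KO replicates 2 to 4. It held 61.96 CPM of Muc20, against 23.3 to 25.2 CPM, and 18.31 CPM of Muc4, against 5.18 to 7.19 CPM. On the RPKM scale the same library was 1.51, 1.05 and 1.20 times the mean of the other 3 Nell2-KO libraries for Muc15, Muc20 and Muc4. It also had the lowest total, of 801112 counts. WT replicate 2 was picked out for Muc4, at 15.17 CPM, while WT replicates 1, 3 and 4 held 2.43 to 4.31 CPM. The part of these libraries' preparation in the values was not tested.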

How the results depend on the processing

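By edgeR, 1 of 4 tested mucins was higher in Nell2-KO, where 690 of 11062 genes were. Without a filter on low counts, 2 of 7 mucins (Muc2 and Muc20) and 671 of 18185 genes were higher. By DESeq2, 3 of 7 mucins (Muc2, Muc5b and Muc20) and 714 of 14632 genes were higher. The count of mucins was 0 by limma on RPKM at either pseudocount. It was 2 without Nell2-KO replicate 1 and WT replicate 2, and 0 to 1 without a single replicate. No mucin was lower under any alternative run. Muc4 turned to -0.0359 without WT replicate 3 and to -0.0405 without Nell2-KO replicate 1 (range without single replicates -0.0405 to 0.995).

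Over all genes, 690 were higher and 964 lower. These counts were 1596 and 1888 by limma-voom with quality weights, 55 and 406 by limma on log2(RPKM + 0.1), 62 and 489 on log2(RPKM + 1), 387 and 605 with libraries thinned to the lowest total, and 1391 and 1694 without Nell2-KO replicate 1 and WT replicate 2. Leaving out single replicates gave 443 to 1249 higher and 748 to 1541 lower. The cause was not tested.

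Apod reversed to 0.0009 when thinned, 0.11 without WT replicate 2 and 0.068 without Nell2-KO replicate 4 (-0.25 to 0.11 without single replicates). Cd164 reversed to -0.10 in both limma fits on RPKM. Pdia3 reversed to -0.084 by limma-voom, -0.17 in both limma fits on RPKM, -0.076 without Nell2-KO replicate 1 and WT replicate 2, and -0.16 without Nell2-KO replicate 1 (-0.16 to 0.18 without single replicates). None of these 3 genes was called.

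With the replicate number as a block, 436 genes were higher, and Muc5b had a log2 fold change of 2.16 (edgeR adjusted p = 0.00749). Whether the numbers pair the samples is not known. Deviations of same-numbered samples correlated at -0.284, -0.168, 0.173 and 0.171, and not every sample matched its own number best. With so few libraries a group, these values cannot exclude a pairing. Depth limits Muc1, Muc2 and Muc6, since the floor of a single library was 0.457 to 4.22 CPM.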
